A study of Mus musculus with 6 samples.

Results

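The nuclear-encoded genes of the mitochondrial respiratory chain were followed in whole testes of mice that lack Dcaf2 in germ cells. The set holds 101 of the 22274 genes in the deposited table, found by symbol: those starting with Nduf, Uqcr or Atp5, the succinate dehydrogenase genes Sdha to Sdhd, the cytochrome oxidase genes Cox4 to Cox8, and Cyc1, Cycs and Cyct. The 101 entries carry 96 distinct symbols, because 5 symbols occur a second time under another gene ID. By role they were 7 core subunits, 32 accessory subunits and 8 assembly factors of complex I, 4 subunits of complex II, 9 of complex III, 3 cytochrome c entries, 20 of complex IV and 18 of complex V.

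The respiratory chain passes electrons from NADH and succinate through complexes I, II and III to cytochrome c and on to oxygen at complex IV, and complex V uses the proton gradient to make ATP. Most subunits are encoded in the nucleus and imported, while a few core membrane subunits come from mitochondrial DNA. Male germ cells carry their own forms of some subunits, among them Cyct, the testis form of cytochrome c, and Cox6b2, Cox7b2 and Cox8c of complex IV.

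Messenger RNA libraries from testes labelled day 9 were available for 3 conditional knockout (cKO) samples and 3 control samples. In the cKO, floxed alleles (Dcaf2 fl/fl) were combined with Stra8-Cre, a Cre driver active in spermatogonia, so somatic cells of the testis keep the gene. Dcaf2 encodes a substrate receptor of the CRL4 ubiquitin ligase. The labels do not give the alleles carried by the controls, the event from which the days are counted, or whether each sample is a separate animal, and a p-value here therefore reflects sample-to-sample spread, part of which may be technical.

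Total counts lay between 15407007 and 18372964 per library. Dtl, the table's symbol for Dcaf2, had 41.7, 43.8 and 51.5 CPM in cKO, against 42.6, 50.3 and 77.4 CPM in control libraries, and the groups overlapped (log2 fold change of -0.31 with SE 0.20, adjusted p = 0.281 in edgeR). The sources used here do not say which exons were floxed, so this gene-level count does not check the labels. The 19 pan-germ-cell markers measured were all lower in cKO, at a median of -1.47 on the log2 scale, and summed to 702, 644 and 800 CPM in the cKO libraries, against 1607, 2286 and 2185 CPM in the controls. Of 12 Sertoli markers 7 were higher (1 to 10 with a library left out, fewest without cKO 2). The Sertoli markers summed to 6951, 7234 and 6394 CPM in cKO and 6384, 4820 and 4586 CPM in control libraries. Leydig markers summed to 1305, 1282 and 1296 CPM in cKO and 1176, 649 and 642 CPM in control libraries. Macrophage markers, of which 2 of 5 were called higher (1 to 4 with a library left out, 4 without control 1), summed to 119, 103 and 103 CPM in cKO and 79.5, 73.3 and 82.9 CPM in control libraries. Endothelial markers, of which 3 of 4 were called higher (0 without cKO 1 or cKO 2), summed to 255, 274 and 239 CPM in cKO and 171, 175 and 199.96 CPM in controls. Peritubular myoid markers summed to 1186, 1188 and 1240 CPM in cKO and 1224, 1210 and 1195 CPM in control libraries, which overlapped. The part of these cell types in the members' levels was not tested. In bulk testis, fewer cells of a type and less RNA per cell cannot be told apart. The 5 spermatid markers had at most 2 counts in any library, 3 of them 0 in all 6, and markers of red cells, fat and striated muscle are given with the complex IV isoforms.

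Of the 95 members with enough counts to be tested, 16 were lower and 0 higher in cKO in edgeR's quasi-likelihood test at a Benjamini-Hochberg adjusted p under 0.05, with counts scaled by TMM; scaled to the pan-germ-cell genes instead, 0 were lower and 93 higher (background 0.499% lower and 93.6% higher). These 16 were 16.8% of the tested members, against 13.9% of all 14424 tested genes called lower and 11.1% called higher, a share near the background that is not by itself a result about the members. The median log2 fold change (cKO over control) of the tested members was -0.24, with a range of -1.80 to 0.31, beside 0.03 for all tested genes; under pan-germ-cell scaling the medians were 1.28 and 1.58. The sign was negative in 83 of 95. Without adjustment, 30 members were lower and 0 higher at p under 0.05 in the same edgeR test. The shares of all tested genes for the sign and for the unadjusted p are not given here. Neither count is by itself a result about the members.

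In 33 of the 95 (34.7%) every cKO library lay below every control library and in 0 above, while of all tested genes 22.1% were lower and 22.5% higher without overlap. The summed level of all 101 members was 5709, 6222 and 6137 CPM in the cKO libraries, against 8251, 6293 and 6662 CPM in the controls. Control 1 stood above the other 5 libraries, and the difference of the group means was -14.8%. The same order appeared in most complexes, as the plot of summed levels shows. Summed complex I core subunits averaged 452 ± 9.38 CPM in cKO and 554 ± 65.2 CPM in control testes (SD, n = 3 each), while summed complex IV subunits averaged 809 ± 52.9 CPM in cKO and 1018 ± 211 CPM in control testes. Summed cytochrome c entries averaged 388 ± 24.9 CPM in cKO and 374 ± 66.7 CPM in controls, with overlapping libraries. Among them only Gm10053, a Cycs copy listed as a pseudogene, had a higher mean in cKO, at 156 CPM against 131 CPM in controls. Cycs averaged 228 CPM in cKO and 233 CPM in controls, and Cyct 3.97 and 9.79 CPM.

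**Figure D1:**
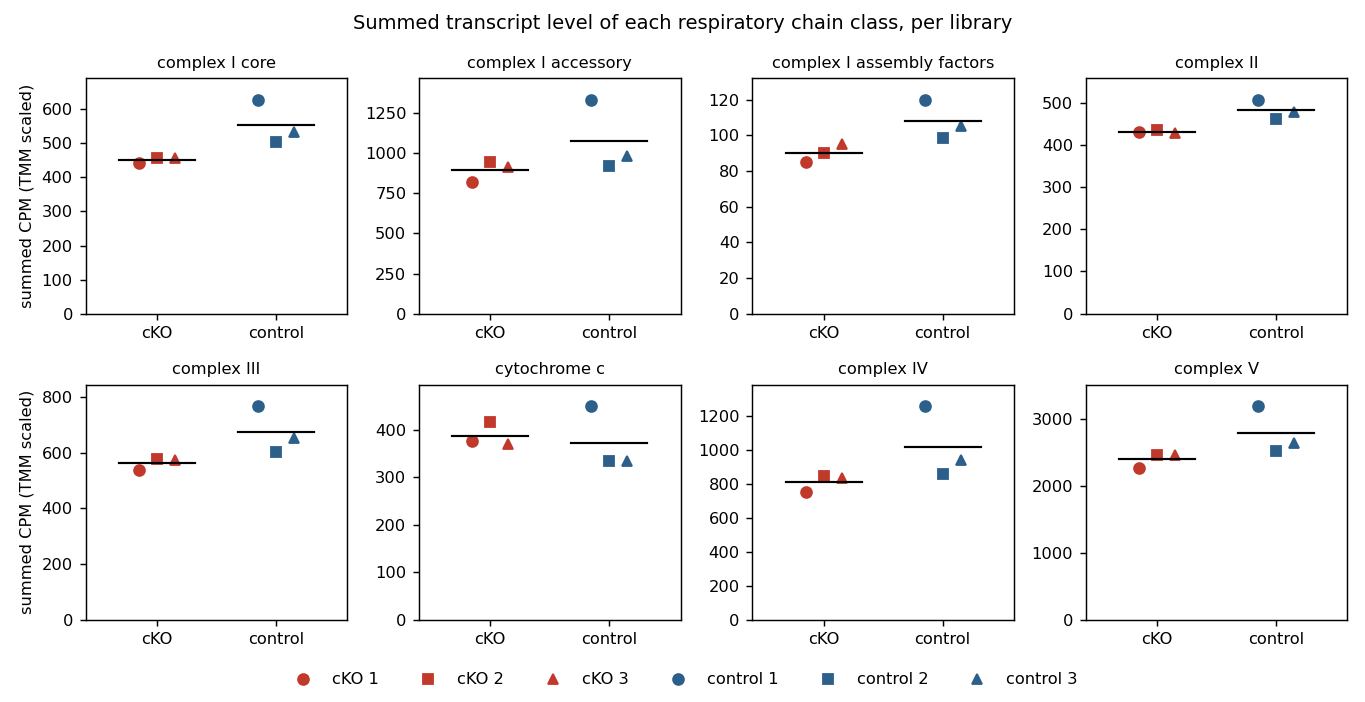
Summed CPM (TMM scaled) of the members of each class, 1 point per library with cKO left of control and a bar at the group mean. Control 1 is the highest library in every class, and cytochrome c, with a mean of 388 CPM in cKO and 374 CPM in control libraries, is the class whose cKO mean is above the control mean under this scaling. Within that class only the Cycs copy Gm10053 has a higher mean in cKO (156 CPM against 131 CPM), while Cycs and Cyct have lower ones.

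Control 1 was the highest library for 85 of the 95 tested members (89.5%), against 25.4% of all tested genes. Its level over the mean of controls 2 and 3 had a median of 1.36 over the members (0.991 to 1.88) and 1.0 over all genes, so the members' count is given here with each library left out. It was 20 lower and 3 higher without control 1 (background 19.7% lower and 16.4% higher), 38 lower without control 2 (background 15.7%) and 8 without control 3 (background 7.63%). Without cKO 1, 2 or 3 it was 7, 7 and 8 lower, against backgrounds of 6.59%, 6.19% and 8.56%. The 38 without control 2 included all of the 16, and by class they were 5 core, 10 accessory and 2 assembly genes of complex I, 2 of complex II, 4 of complex III, 1 of cytochrome c, 6 of complex IV and 8 of complex V.

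The members that were lower in all 6 of these fits were Cyct, 1700029P11Rik, Ndufa11, Ndufa9, Ndufaf8, Cyc1 and Atp5pb, 7 of the 16. The share of all tested genes that were lower in all 6 fits is not given here. The count of 7 is therefore not by itself a result about the members. Of the 16, 15 kept their call without control 1 and 15 kept it after removal of the transcript length trend; Uqcr11 lost it in both (edgeR adjusted p 0.0560 and 0.0741). The 7 come from complexes I, III and V, cytochrome c and an assembly factor, and they are plotted by library. In each of them the cKO and control libraries did not overlap. Of these, 1700029P11Rik passed the count filter only through the control group, so its place here is not support by itself.

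**Figure D2:**
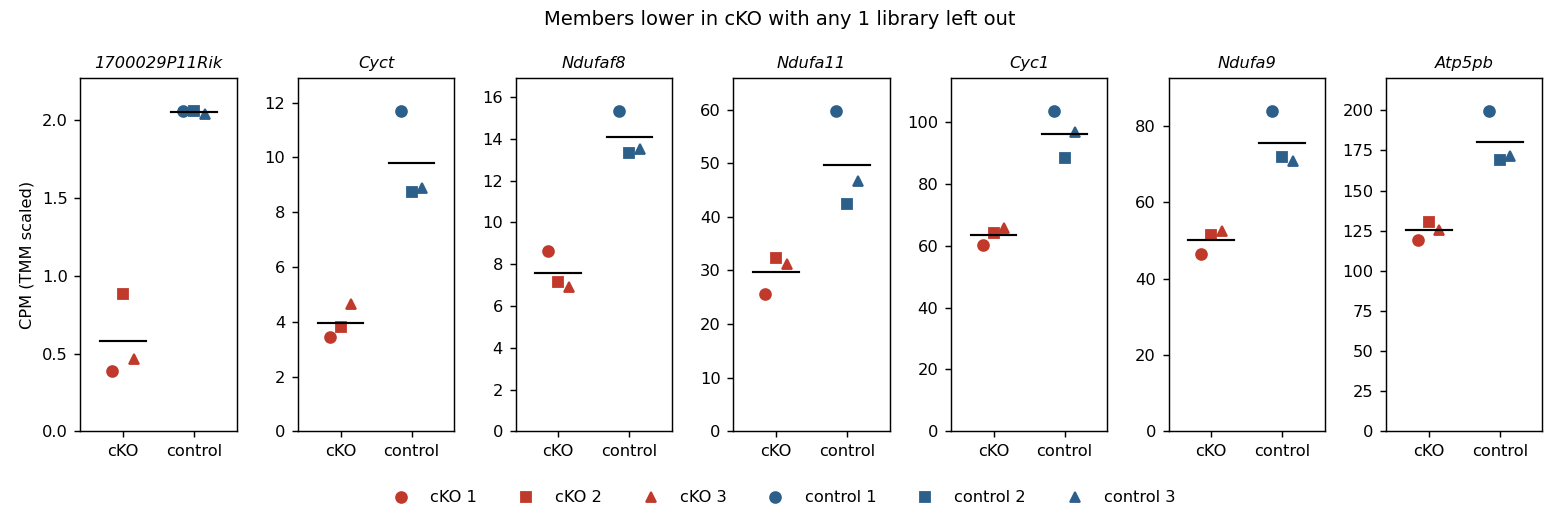
CPM (TMM scaled) in each library for the 7 members that were lower in cKO with any 1 library left out, cKO left of control, with a bar at each group mean and each vertical axis starting at 0. For 1700029P11Rik, which passed the count filter only through the control group, the controls lie between 2.04 and 2.06 CPM. Its cKO libraries lie between 0.390 and 0.881 CPM. Under pan-germ-cell scaling the log2 fold changes of Cyct, Ndufaf8, Ndufa9, Cyc1 and Atp5pb are above 0. Those of Ndufa11 and 1700029P11Rik under that scaling are not given here.

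Complex I, the NADH dehydrogenase, had the most members, and its core subunits, which carry the flavin and iron-sulfur clusters, were lower in 3 of 7, with a median log2 fold change of -0.33. All 7 were negative. Of all tested genes 13.9% were called lower, and their share of negative signs is not given here. The counts of calls and of signs by class are therefore not by themselves a result. Ndufv1, the subunit that binds NADH and flavin, had 72.1, 76.2 and 83.5 CPM in cKO, against 111, 94.1 and 101 CPM in control libraries (log2 fold change of -0.40 with SE 0.10, adjusted p = 0.0215 in edgeR). Ndufs7, which holds the cluster next to the quinone site, had 19.2, 19.5 and 18.8 CPM in cKO, against 36.1, 24.1 and 26.4 CPM in control libraries (log2 fold change of -0.59 with SE 0.16, adjusted p = 0.0245 in edgeR). Ndufs8, another iron-sulfur subunit, had 38.8, 33.8 and 37.3 CPM in cKO, against 68.9, 45.6 and 49.9 CPM in control libraries (log2 fold change of -0.58 with SE 0.15, adjusted p = 0.0245 in edgeR). In all 3 the groups did not overlap and control 1 was the highest library. The calls depended on single libraries. Ndufv1 lost its call without cKO 1, cKO 2 or control 3 (edgeR adjusted p 0.0709 to 0.108). Ndufs7 lost its call without cKO 1, cKO 2, cKO 3 or control 3 (edgeR adjusted p 0.0538 to 0.0858). Ndufs8 lost its call without cKO 1, cKO 2, cKO 3 or control 3 (edgeR adjusted p 0.0538 to 0.105).

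Of 31 tested accessory subunits of complex I, 4 were lower (background 13.9%), 0 higher and 28 negative, with a median of -0.23. Ndufa9, at the junction of the peripheral and membrane arms, had 46.4, 51.6 and 52.5 CPM in cKO, against 84.1, 72 and 70.7 CPM in control libraries (log2 fold change of -0.59 with SE 0.10, adjusted p = 0.00538 in edgeR). Ndufa11, a membrane-arm subunit, had 25.6, 32.4 and 31.2 CPM in cKO, against 59.8, 42.4 and 46.8 CPM in control libraries (log2 fold change of -0.74 with SE 0.15, adjusted p = 0.00860 in edgeR). For both, the highest cKO library lay well under the lowest control. Ndufb9, a membrane-arm subunit of the LYR family, had 39.6, 44.6 and 46.6 CPM in cKO, against 72.3, 48.3 and 59.3 CPM in control libraries (log2 fold change of -0.46 with SE 0.15, adjusted p = 0.0472 in edgeR), and Ndufb9 lost its call without cKO 1, cKO 2, cKO 3 or control 3 (edgeR adjusted p 0.0941 to 0.176). The largest difference was in the entry ENSMUSG00000061633, which the table also names Ndufb11 and the reference names 1700029P11Rik. It had 0.390, 0.881 and 0.465 CPM in cKO, against 2.06, 2.06 and 2.04 CPM in control libraries (log2 fold change of -1.80 with SE 0.35, adjusted p = 0.00796 in edgeR). Its counts were low, and how reads shared with Ndufb11 were divided is not given in the sources used here. Ndufb11 itself, an X-linked membrane-arm subunit, had 38.2, 46 and 40.8 CPM in cKO, against 54.3, 32.8 and 34.3 CPM in control libraries (log2 fold change of 0.04 with SE 0.19, adjusted p = 0.889 in edgeR), with overlapping groups.

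Without control 1, Ndufb11 was higher in cKO, with a log2 fold change of 0.29 (edgeR adjusted p = 0.0461). Ndufv3, an accessory subunit of the NADH-binding part, did not pass the test at 0.03 (edgeR adjusted p = 0.911). Ndufa10, the accessory subunit with the most counts, had 67.8, 66.8 and 64.9 CPM in cKO, against 85.1, 66.1 and 69.1 CPM in control libraries (log2 fold change of -0.14 with SE 0.11, adjusted p = 0.377 in edgeR). In many other accessory subunits control 1 stood above 5 libraries that lay close together, as in Ndufb5, which had 36.7, 36.7 and 37 CPM in cKO, against 54.8, 37 and 38.3 CPM in control libraries. Gm20538, a second entry under the symbol Ndufb8, was at 0 in all 6 libraries.

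The 8 complex I assembly factors, which build the complex without remaining in it, had 1 call, lower in cKO (background 13.9%), and a median of -0.22. Ndufaf8, which in human cells stabilises the assembly factor NDUFAF5, had 8.65, 7.16 and 6.91 CPM in cKO, against 15.4, 13.3 and 13.5 CPM in control libraries (log2 fold change of -0.89 with SE 0.15, adjusted p = 0.00445 in edgeR). Its mean level was 1.86-fold higher in controls, the largest difference among these 8. Ndufaf5, its partner, had 5.85, 6.87 and 8.24 CPM in cKO, against 9.97, 8.20 and 9.08 CPM in control libraries and did not pass the test (log2 fold change of -0.38 with SE 0.18, adjusted p = 0.147 in edgeR). Ndufaf7, a methyltransferase that acts on complex I, had 18.9, 16.3 and 16.3 CPM in cKO, against 21.8, 19.9 and 23.7 CPM in control libraries (log2 fold change of -0.34 with SE 0.12, adjusted p = 0.0700 in edgeR). Its groups did not overlap, and it passed the test without control 1 (edgeR adjusted p = 0.0480) and without control 2 (0.0416). Ndufaf6, Ndufaf3 and Ndufaf1 had log2 fold changes of 0.03, 0.00 and -0.10 with overlapping groups, and none of the 3 passed the test (edgeR adjusted p 0.941, 0.997 and 0.639).

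Complex II, succinate dehydrogenase, links the citric acid cycle to the chain and is encoded entirely in the nucleus. Of its 4 subunits 1 was lower (background 13.9%). This was Sdhb, the iron-sulfur subunit, with 44.5, 49.4 and 48.1 CPM in cKO, against 72.4, 58 and 65.5 CPM in control libraries (log2 fold change of -0.46 with SE 0.11, adjusted p = 0.0153 in edgeR). The groups did not overlap, and Sdhb lost its call without cKO 1, cKO 2, cKO 3 or control 3 (edgeR adjusted p 0.0537 to 0.0824). Sdhc, a membrane anchor, had 58.8, 58.3 and 62.2 CPM in cKO, against 77.5, 65.3 and 72.1 CPM in control libraries (log2 fold change of -0.26 with SE 0.10, adjusted p = 0.0765 in edgeR), and it passed the test without control 2 (edgeR adjusted p = 0.0223). Sdha, the flavin subunit, had 246, 244 and 246 CPM in cKO, against 262, 260.3 and 261 CPM in control libraries. Its libraries lay close together within each group and did not overlap, but the difference of -0.09 did not pass the test (edgeR adjusted p = 0.457, SE 0.08).

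Complex III, the cytochrome bc1 complex, had 2 of 9 members lower (background 13.9%), and all 9 negative, with a median of -0.23. The background share of negative signs is not given here, so the signs are not by themselves a result. Cyc1, cytochrome c1, which hands electrons to cytochrome c, had 60.1, 64.1 and 65.9 CPM in cKO, against 104, 88.3 and 96.6 CPM in control libraries (log2 fold change of -0.60 with SE 0.10, adjusted p = 0.00375 in edgeR). Its groups were well apart, and its adjusted p stayed between 0.000662 and 0.0314 when any 1 library was left out. Uqcr11, the smallest subunit, had 13.9, 17.1 and 14.9 CPM in cKO, against 26.4, 18 and 20.7 CPM in control libraries (log2 fold change of -0.51 with SE 0.16, adjusted p = 0.0491 in edgeR), and Uqcr11 lost its call without cKO 1, cKO 2, cKO 3, control 1 or control 3 (edgeR adjusted p 0.0560 to 0.171). Uqcrc1, a core protein, had 125, 118 and 127 CPM in cKO, against 174, 138 and 149.9 CPM in control libraries (log2 fold change of -0.32 with SE 0.11, adjusted p = 0.0546 in edgeR), and it passed the test without control 1 (edgeR adjusted p = 0.0302) and without control 2 (0.0150). Uqcrfs1, the Rieske iron-sulfur protein, had 65.7, 67.1 and 66.5 CPM in cKO, against 80.9, 67.6 and 64.7 CPM in control libraries, with overlapping groups (log2 fold change of -0.10 with SE 0.11, adjusted p = 0.531 in edgeR).

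Cytochrome c carries electrons between complexes III and IV. Cyct, ENSMUSG00000056436, the testis form, had 3.45, 3.82 and 4.65 CPM in cKO, against 11.7, 8.75 and 8.90 CPM in control libraries (log2 fold change of -1.30 with SE 0.20, adjusted p = 0.00313 in edgeR), a mean level 2.47-fold higher in controls. Every control library lay above every cKO library. Cycs, the widely expressed form, had 232, 239 and 215 CPM in cKO, against 281, 205 and 213 CPM in control libraries, and its groups overlapped (log2 fold change of -0.03 with SE 0.13, adjusted p = 0.894 in edgeR). As a share of the summed FPKM of the pair, Cyct made up 6.62%, 7.09% and 9.36% in cKO libraries, against 16.6%, 16.9% and 16.6% in controls. The means were 7.69% ± 1.47 in cKO and 16.7% ± 0.204 in control testes (SD, n = 3 each), a difference of -9.02 percentage points with a two-sided exact permutation p of 0.1, the smallest that 3 against 3 libraries can give. The difference was -2.32 points when the share was taken in counts and -4.07 points with the FPKM of the Cycs copy Gm10053, described with these genes, added to the sum, and the libraries did not overlap in either. Control 1, the highest library for most members, did not stand apart in this share.

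Cyct fell beside the pan-germ-cell markers, at -1.30 against their median of -1.47, and scaled to those markers its log2 fold change was 0.22; the part of germ-cell number in its level was not tested. The third cytochrome c entry, ENSMUSG00000058927, is named Cycs in the table and Gm10053 in the reference, which lists it as a pseudogene. It had 141, 174 and 151 CPM in cKO, against 158, 121 and 113 CPM in control libraries (log2 fold change of 0.25 with SE 0.14, adjusted p = 0.218 in edgeR). It was higher in cKO without control 1 (log2 fold change 0.38, edgeR adjusted p = 0.0117) and with the length trend removed (0.44, edgeR adjusted p = 0.00411). Reads from Cycs and this copy may have been split between the 2 entries, so neither level is certain.

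The promoters of Cyct and Cycs are printed because they encode forms of 1 protein whose fold changes were -1.30 and -0.03 on the log2 scale, and those of Ndufa11 and Ndufaf8 because they are the lower members of smallest p whose windows hold an NRF1 and an ETS match. Each is 300 bases, 250 before and 50 after the start, from RefSeq on build GRCm38.p6, 5′ to 3′ on the gene's strand, and capitals mark matches to 3 motifs: NRF1 (GCGCA, any 1 base, then GCGC), ETS (CCGGAAG) and CRE (TGACGTCA), searched on both strands, with no overlapping matches among those printed. NRF1, ETS-family factors and CREB are known regulators of many respiratory genes.
Cyct, chr2:76360404-76360703, minus strand: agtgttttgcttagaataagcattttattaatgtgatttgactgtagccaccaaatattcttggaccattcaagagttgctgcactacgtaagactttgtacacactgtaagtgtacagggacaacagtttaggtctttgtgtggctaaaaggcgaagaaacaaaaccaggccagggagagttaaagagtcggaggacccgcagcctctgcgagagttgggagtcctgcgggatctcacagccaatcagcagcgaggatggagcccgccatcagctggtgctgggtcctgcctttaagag
Cycs, chr6:50566520-50566819, minus strand: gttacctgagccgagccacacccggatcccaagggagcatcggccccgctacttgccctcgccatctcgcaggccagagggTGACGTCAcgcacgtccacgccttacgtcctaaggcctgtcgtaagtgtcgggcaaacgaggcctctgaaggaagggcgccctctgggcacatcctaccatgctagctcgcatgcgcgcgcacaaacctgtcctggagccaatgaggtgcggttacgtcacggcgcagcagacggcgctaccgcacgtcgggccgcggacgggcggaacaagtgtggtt
Ndufa11, chr17:56717512-56717811, plus strand: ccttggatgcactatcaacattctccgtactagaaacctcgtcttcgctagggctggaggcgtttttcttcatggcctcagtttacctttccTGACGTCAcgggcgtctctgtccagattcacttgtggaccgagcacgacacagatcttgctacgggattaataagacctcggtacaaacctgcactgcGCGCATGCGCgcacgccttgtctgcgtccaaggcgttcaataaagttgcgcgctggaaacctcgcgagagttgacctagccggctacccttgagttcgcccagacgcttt
Ndufaf8, chr11:120098684-120098983, plus strand: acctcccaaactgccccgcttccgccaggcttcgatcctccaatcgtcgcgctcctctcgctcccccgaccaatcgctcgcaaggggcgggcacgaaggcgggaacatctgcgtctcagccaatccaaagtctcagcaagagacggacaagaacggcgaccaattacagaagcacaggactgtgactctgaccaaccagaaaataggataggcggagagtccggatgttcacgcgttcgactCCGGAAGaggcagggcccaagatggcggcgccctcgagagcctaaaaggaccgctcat
The Cyct window held none of these letters, the Cycs window 1 CRE match, the Ndufa11 window 1 NRF1 and 1 CRE match, and the Ndufaf8 window 1 ETS match. Only exact letters were counted, so the absence of a match does not show the absence of a site. The Cycs window holds tcgcatgcgc, which differs from the NRF1 letters at 1 base and was not counted. Promoters were matched for 66 members, 68 windows in all. NRF1 matches occurred in 20.6% of them and in 4.60% of all 32851 promoters, ETS matches in 20.6% and 8.86%, and CRE matches in 7.35% and 1.79%. Of the 12 members called lower that had a promoter, 1 held the NRF1, 4 the ETS and 1 the CRE letters. A match is a description of the letters in the window.

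Complex IV, cytochrome c oxidase, is rich in tissue isoforms. Of 16 tested members 2 were lower and 0 higher (background 13.9% and 11.1%), with a median of -0.22. Cox4i1, the common form of the regulatory subunit and the complex IV gene with the highest FPKM, averaged 191 ± 7.36 FPKM in cKO and 300.1 ± 61.3 FPKM in control testes (SD, n = 3 each), and had 138, 150.3 and 148 CPM in cKO, against 265, 183 and 207 CPM in control libraries (log2 fold change of -0.58 with SE 0.14, adjusted p = 0.0157 in edgeR). Cox5a, a subunit of the matrix side, had 41, 42.5 and 44.6 CPM in cKO, against 73.7, 52.2 and 52.7 CPM in control libraries (log2 fold change of -0.48 with SE 0.14, adjusted p = 0.0358 in edgeR). In both the groups did not overlap, with control 1 far above the rest, and Cox4i1 lost its call without cKO 1, cKO 2 or cKO 3 (edgeR adjusted p 0.0578 to 0.0773), while Cox5a lost its call without cKO 1, cKO 2, cKO 3 or control 3 (edgeR adjusted p 0.0545 to 0.133). Cox6a1, the non-muscle form of its subunit, had 70.4, 81.3 and 72.9 CPM in cKO, against 127, 87.5 and 91.3 CPM in control libraries (log2 fold change of -0.45 with SE 0.15, adjusted p = 0.0547 in edgeR), and it passed without control 1 (edgeR adjusted p = 0.0275) and without control 2 (0.0186). The 2 members with the most positive values were low ones. Cox7a1, the heart and muscle form, had 1.56, 3.41 and 2.06 CPM in cKO, against 2.74, 1.90 and 1.02 CPM in control libraries (log2 fold change of 0.31 with SE 0.41, adjusted p = 0.615 in edgeR), and Ndufa4l2, a hypoxia-induced relative of the subunit Ndufa4, had 2.60, 2.17 and 3.39 CPM in cKO, against 2.69, 1.62 and 2.76 CPM in control libraries (log2 fold change of 0.20 with SE 0.30, adjusted p = 0.647 in edgeR). Both overlapped between groups.

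Among the testis isoforms of complex IV, Cox7b2 was lower in cKO, Cox6b2 did not pass the test and Cox8c was too low to be tested. Cox7b2, ENSMUSG00000049387, is written COX7B2 in the table, outside the symbol rule, and is reported beside the members. It had 1.95, 2.35 and 3.19 CPM in cKO, against 4.96, 3.90 and 4.87 CPM in control libraries (log2 fold change of -0.87 with SE 0.25, adjusted p = 0.0320 in edgeR), with no overlap between the groups. Its call was lost without cKO 1 (edgeR adjusted p = 0.123), cKO 2 (0.117) or control 3 (0.0987) and with the length trend removed (0.0569). Cox7b, its widely expressed partner, had 26.3, 34.8 and 35.5 CPM in cKO, against 41, 26.3 and 27.6 CPM in control libraries (log2 fold change of 0.03 with SE 0.19, adjusted p = 0.935 in edgeR). Cox7b2 made up 12.5% ± 1.61 of the pair's FPKM in cKO and 21.4% ± 3.15 in control testes (SD, n = 3 each), with an exact permutation p of 0.1; the difference was -8.99 percentage points, or -5.75 in counts. The groups did not overlap in this share either.

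Cox6b2, the testis form of subunit 6B, had 5.20, 6.99 and 6.18 CPM in cKO, against 6.65, 4.74 and 7.03 CPM in control libraries and overlapped between the groups (log2 fold change of 0.00 with SE 0.21, adjusted p = 0.996 in edgeR). Its partner Cox6b1 had 40.6, 44.7 and 43.5 CPM in cKO, against 63.7, 43.6 and 48.6 CPM in control libraries (log2 fold change of -0.28 with SE 0.14, adjusted p = 0.174 in edgeR), and it passed the test without control 2 (edgeR adjusted p = 0.0371). The share of Cox6b2 was 14.4% ± 0.981 in cKO and 12.4% ± 2.24 in control testes (SD, n = 3 each; exact permutation p = 0.3). Cox8c, the testis form of subunit 8, had 2, 3 and 8 counts in the cKO libraries, against 9, 10 and 4 in the controls, too few for the test. Its share of the pair with Cox8a was 0.396% ± 0.299 in cKO and 0.484% ± 0.217 in control testes (SD, n = 3 each; exact permutation p = 0.6). Cox8a had 80.9, 82.3 and 85.4 CPM in cKO, against 132, 91.8 and 95.9 CPM in control libraries (log2 fold change of -0.36 with SE 0.14, adjusted p = 0.0856 in edgeR), with no overlap, and it passed without control 2 (edgeR adjusted p = 0.0250).

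**Figure D3:**
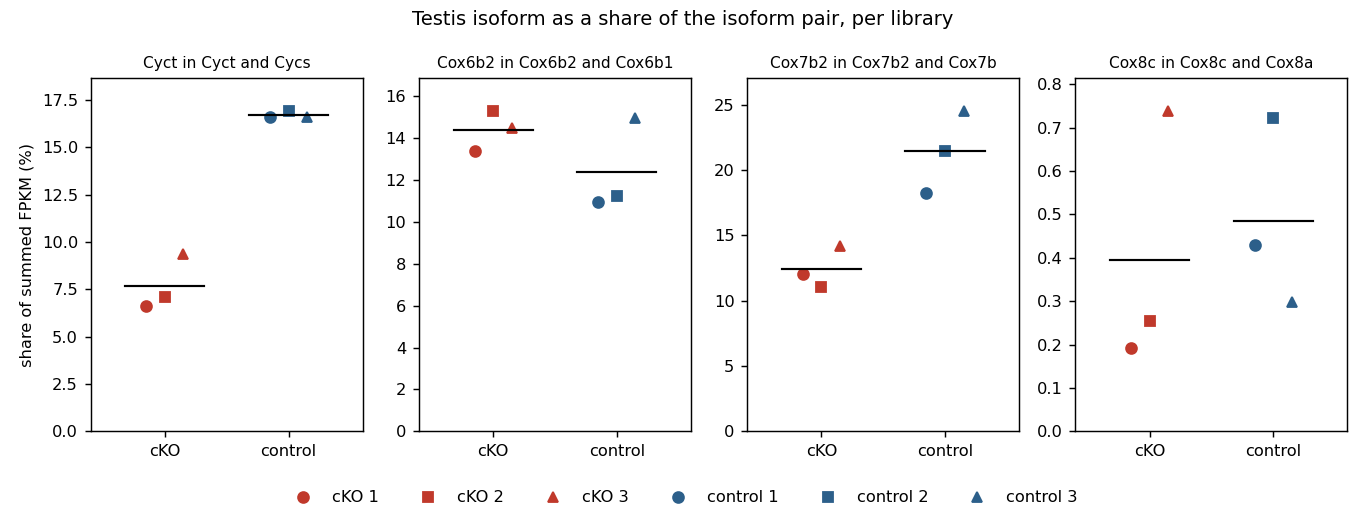
FPKM of each testis isoform as a percentage of the summed FPKM of the isoform and its widely expressed partner, 1 point per library with cKO left of control, a bar at each group mean and each axis starting at 0. The shares of Cyct and Cox7b2 do not overlap between groups, at means of 7.69% and 12.5% in cKO and 16.7% and 21.4% in control libraries, while those of Cox6b2 and Cox8c do. In counts the differences are -2.32 points for Cyct and -5.75 for Cox7b2.

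The muscle forms Cox6a2 and Cox8b and the second Cox5b entry, Gm11273, stayed at 12 counts or fewer. Of 5 striated muscle markers, 3 were tested and 1, Actn3, was lower, at a mean of 2.15 CPM in cKO and 6.01 CPM in controls. The other tested markers, Ckm and Tnnt3, had positive log2 fold changes of 0.96 and 0.48 and did not pass the test. The list summed to 4.55, 3.58 and 3.39 CPM in cKO and 6.33, 6.47 and 8.23 CPM in control libraries, and Actn3 made the sum lower in cKO. Red-cell markers, of which 0 of 5 passed the test, summed to 435, 253 and 227 CPM in cKO and 659, 270 and 166 CPM in controls. Fat markers, of which 1 of 2 tested was higher, summed to 39.5, 33.9 and 40.3 CPM in cKO and 41.3, 31.6 and 25.7 CPM in controls. Their part in the members' levels was not tested.

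Complex V, the ATP synthase, held the most abundant member per length. Atp5f1b, the catalytic beta subunit, averaged 360 ± 13.2 FPKM in cKO and 442 ± 47.2 FPKM in control testes (SD, n = 3 each), the highest of all members in both groups, and it had 679.9, 706 and 735 CPM in cKO, against 919.8, 773 and 793 CPM in control libraries. Its groups did not overlap, and it did not pass the test (log2 fold change of -0.23 with SE 0.10, adjusted p = 0.126 in edgeR). Without control 2 it was lower (edgeR adjusted p = 0.0383), while under pan-germ-cell scaling it was higher. Of 17 tested members 2 were lower and 0 higher (background 13.9% and 11.1%), with a median of -0.24. Atp5pb, subunit b of the peripheral stalk, had 119, 131 and 126 CPM in cKO, against 199.9, 169 and 172 CPM in control libraries (log2 fold change of -0.53 with SE 0.10, adjusted p = 0.00697 in edgeR). Its adjusted p lay between 0.00114 and 0.0478 over the 6 leave-one-out fits, and its call was lost when scaling factors came from genes of the members' own length range (edgeR adjusted p = 0.0682). Atp5f1d, the delta subunit of the rotor, had 71.6, 76.2 and 82.4 CPM in cKO, against 139.8, 90.4 and 97.2 CPM in control libraries (log2 fold change of -0.51 with SE 0.16, adjusted p = 0.0467 in edgeR), and Atp5f1d lost its call without cKO 1, cKO 2, cKO 3 or control 3 (edgeR adjusted p 0.0760 to 0.164).

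Subunit c of the rotor ring is encoded by the 3 genes Atp5mc1, Atp5mc2 and Atp5mc3, which give the same mature protein. Atp5mc1 had 56.3, 58.2 and 58.7 CPM in cKO, against 79.4, 60.9 and 63.6 CPM in control libraries, without overlap, and did not pass the test (log2 fold change of -0.24 with SE 0.11, adjusted p = 0.160 in edgeR). Of the 6 fits with a library left out it passed in the 1 without control 2 (edgeR adjusted p = 0.0497). Atp5mc3 had 91.6, 100.3 and 101 CPM in cKO, against 124, 74.4 and 81.3 CPM in control libraries, overlapping groups, with a log2 fold change of 0.06 (edgeR adjusted p = 0.814). Without control 1 Atp5mc3 was higher in cKO, at 0.30 (edgeR adjusted p = 0.0177). Atp5mc2 had 61.9, 70.5 and 66.2 CPM in cKO, against 80.5, 54.7 and 66.1 CPM in control libraries, with overlapping groups (log2 fold change of -0.02 with SE 0.14, adjusted p = 0.933 in edgeR). Atp5f1c, the gamma subunit, also overlapped at a log2 fold change of 0.01 (edgeR adjusted p = 0.956). Gm5426, a second Atp5mg entry, was at 0 in all libraries.

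The members are short transcripts, and the libraries differed in how they represented short and long transcripts. Lengths implied by the deposited counts and FPKM had a median of 763 bases over tested members and 2811 bases over all tested genes, and 73 of the 95 members fell in the shortest decile of genes, up to 1195 bases. The level of control 1 fell with length, by 0.248 log2 units per doubling, while in the other libraries the slope lay between -0.034 and 0.087. In the shortest decile of all genes 18.2% were lower and 1.11% higher in cKO, with a median log2 fold change of -0.19, or -0.07 without control 1. The members in that decile had a median of -0.25, with 12 of 73 lower. In the longest decile the median of all genes was 0.27, or 0.11 without control 1. Among the members, fold change and length had a Spearman rho of 0.10, described without a test, beside 0.31 over all tested genes. The members share libraries and cover a narrow range of lengths.

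**Figure D4:**
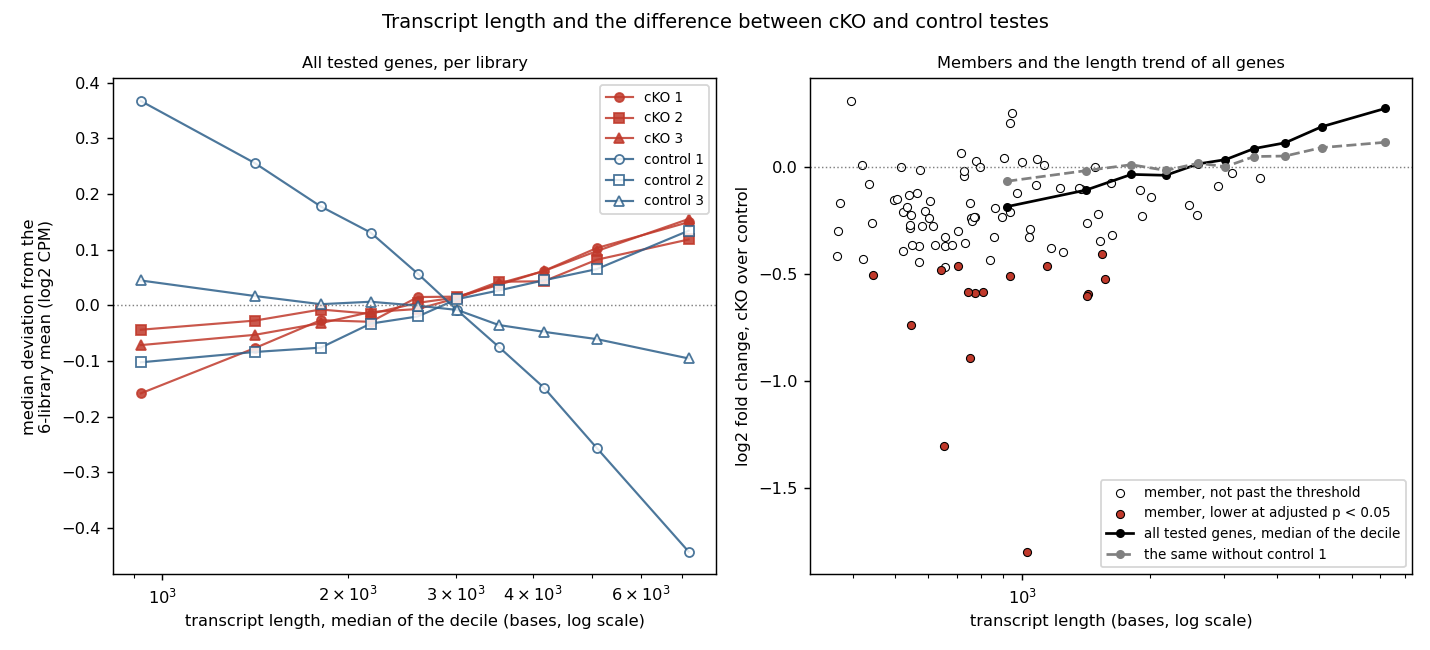
Left, median deviation of each library from the 6-library mean (log2 CPM) in deciles of all tested genes by transcript length (log scale), cKO filled and control open. Right, log2 fold change (cKO over control) of each tested member against its length, with the decile medians of all genes with all libraries and without control 1: in the shortest decile these are -0.19 and -0.07.

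With the length trend of each library removed, 20 members were lower and 4 higher (21.1% and 4.21%), against 19.5% and 14.3% of all tested genes, and the median of the members was -0.05. The 15 members that kept their call included all 7 that were lower in every leave-one-out fit. Those higher were Gm10053 (log2 fold change 0.44, edgeR adjusted p = 0.00411), Atp5mc3 (0.30, 0.0155), Atp5mc2 (0.20, 0.0491) and Atp5pf (0.21, 0.0415), the last a peripheral stalk subunit. With both the trend and control 1 removed the counts were again 20 lower and 4 higher (background 22.1% and 17.5%), with a median of -0.04. When scaling factors came from genes of the members' own length range, 8 members were lower (Cyct, 1700029P11Rik, Ndufa11, Ndufa9, Ndufaf8, Cyc1, Cox4i1 and Ndufs7; background 4.98%) and 0 higher (background 8.58%), and the median was -0.07, while the median of all genes was 0.18. The other 8 of the 16 lost their call there (edgeR adjusted p 0.0618 to 0.184).

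**Figure D5:**
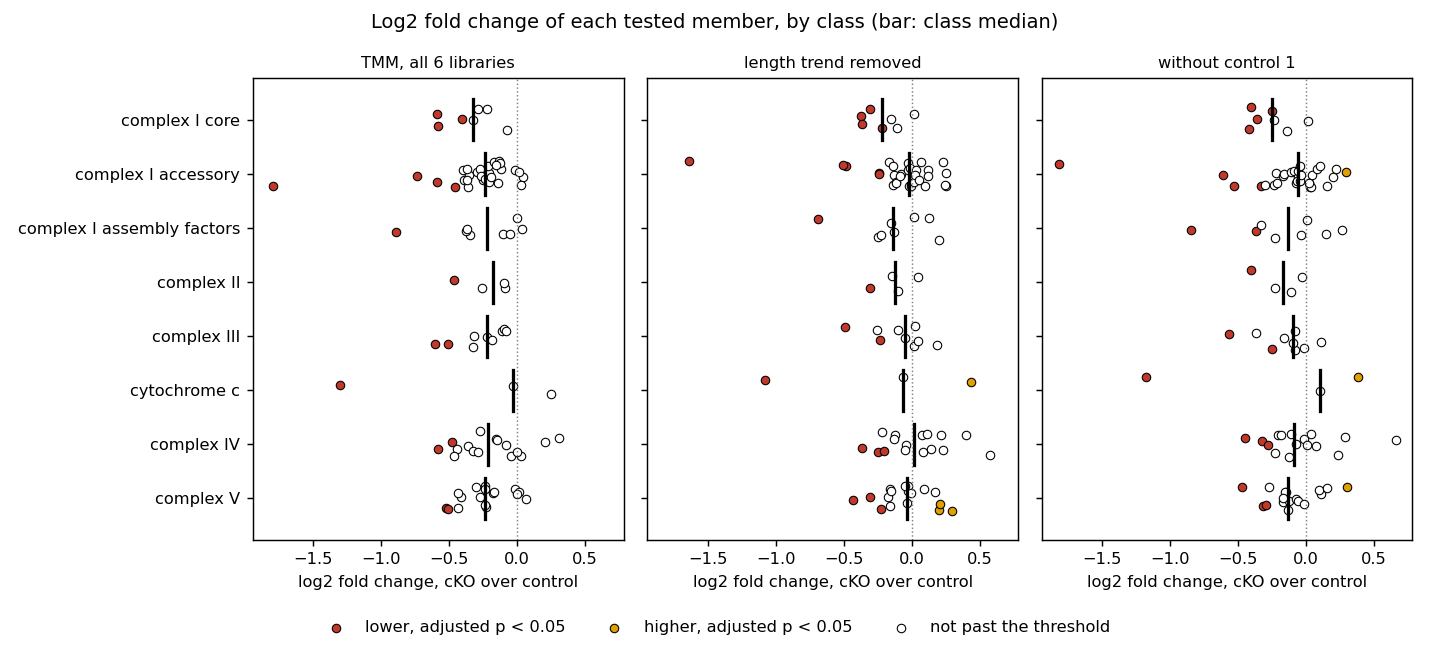
Log2 fold change (cKO over control) of each tested member by class, 1 point per member with a bar at the class median, under TMM scaling of all 6 libraries, with the length trend removed and without control 1. The calls are 16 lower and 0 higher, 20 lower and 4 higher, and 20 lower and 3 higher in that order, and scaling to the pan-germ-cell genes, not drawn, gives 0 lower and 93 higher.

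Other genes of energy metabolism and the ribosomes were counted from lists, with the members' scaling. Under pan-germ-cell scaling none of those lists had a gene called lower. Of all tested genes 13.9% were called lower and 11.1% higher, and a count near these shares is not by itself a result about a list. Of 78 mitochondrial ribosome genes 21 were lower and 0 higher, at a median of -0.27 on the log2 scale, and of 79 cytosolic ribosomal protein genes 10 were lower and 0 higher, with a median of -0.30. With 1 library left out the count lower was 8 (without cKO 1) to 38 (without control 2) for the mitochondrial ribosome. It was 2 (without cKO 1) to 59 (without control 2) for the cytosolic one. The background lower was 6.59% without cKO 1 and 15.7% without control 2. The 13 protein-coding genes of mitochondrial DNA, which supply the remaining subunits, had 0 calls and a median of 0.05, and summed to 50556 ± 1915 CPM in cKO and 50703 ± 5967 CPM in control testes (SD, n = 3 each). At an unadjusted p under 0.05 the edgeR counts for these 13 were 0 lower and 1 higher, and DESeq2 called 0. Without control 1 edgeR called 1 of the 13 higher, and without control 2 it called 2 lower. Of 44 tested assembly factors outside the symbol rule 6 were lower (Cox11, Sco2, Bcs1l, Uqcc2, Ttc19 and Ecsit, at log2 fold changes of -0.75, -0.82, -0.62, -0.73, -0.40 and -0.79). Of 17 citric acid cycle genes 3 were lower (Cs, Mdh2 and Pdhx), at a median of -0.07, and of 18 tested glycolytic genes 2 were lower (Gpi1 and Aldoc), with a median of 0.10. Of 17 regulators of mitochondrial biogenesis 3 were lower: Pprc1, a coactivator of the PGC-1 family, at -0.54, Polrmt, the mitochondrial RNA polymerase, at -0.46, and Polg, the mitochondrial DNA polymerase, at -0.31. Without cKO 1, 0 of the citric acid cycle genes and 0 of these regulators were called, and 2 of the assembly factors. Without control 1, 7 glycolytic genes were called higher (background 16.4%).

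Of 10 energy genes with known germ-line expression 6 were tested and 4 were lower (background 13.9%). These were Cyct and Cox7b2, Slc25a31, the germ-cell ADP/ATP carrier, at -1.61 (edgeR adjusted p = 0.000238), and Pdha2, the germ-cell pyruvate dehydrogenase subunit, at -1.35 (edgeR adjusted p = 0.00658). Cox6b2, from the same list, was at 0.00. The list summed to 116 ± 10.1 CPM in cKO and 209.5 ± 9.26 CPM in control testes (SD, n = 3 each), and control 1 was not the highest of its libraries.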

How the data were processed

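RNA from whole testes was measured in 3 cKO and 3 control libraries, grouped by the sample titles. The authors deposited 1 table that gives expected counts and FPKM values by gene for every library; the counts are whole numbers and were tested as deposited. Per the submitters' processing notes StringTie 1.3.1 and RSEM were used, with roles not stated; aligner, genome build, annotation and strand use were not given in the sources used here. Members and lists were chosen with earlier results of these data known. Genes passing edgeR's filterByExpr (minimum count 10) were scaled by TMM and tested by the quasi-likelihood test in edgeR 4.0.16 (R 4.3.3), with Benjamini-Hochberg adjustment over all 14424 tested genes. CPM values are relative to the TMM-scaled library size. Transcript length was taken from the ratio of deposited counts to FPKM, and its trend was removed per library by lowess (span 0.3). The edgeR test was checked on simulated independent counts without a length trend, so the check does not cover the trend seen in control 1. Removal of the trend was checked apart, on a trend simulated in 1 library.

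Named genes were the testis isoforms and partners, the 2 members of smallest p in each direction per class, and the member of highest CPM per class, of which 1 is not reported here; all 16 called members, Ndufaf5, Ndufb5, Uqcrfs1, Cox6a1, Atp5mc1, Atp5mc2 and Atp5pf were added after their values were seen. Alternatives were RLE, upper-quartile, total-count, pan-germ-cell and length-range scaling, DESeq2 1.42.0, limma-voom (limma 3.58.1), no filter, a filter of CPM 1 in 3 libraries, a replicate block, the length trend and each library left out; the trend without control 1 and annotated lengths were added after seeing the data. All totals lie within 15407007 to 18372964 counts, which limits members under about 10 counts. The labels give no pairing by library number. Same-numbered cKO and control libraries correlated at -0.079, -0.098 and 0.085, and differently numbered ones at -0.251 to 0.250. Each group of 3 was centred first, so these values cannot tell whether libraries pair.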

Additional observations from a re-analysis of the deposited data

How the results depend on the processing

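The count of members lower in cKO stayed within 1.5 times 16 under RLE, upper-quartile and total-count scaling, DESeq2, limma-voom, both filters, annotated length and the replicate block (12 lower, against 1574 of all tested genes). It was 0 lower and 93 higher under pan-germ-cell scaling, where 13496 of all tested genes were higher and 72 lower and the members' median was 1.28, and 8 lower under length-range scaling, where 718 of all genes were lower. Leaving out 1 library gave 7 to 38 lower and 0 to 3 higher members, and 903 to 2863 lower and 452 to 2392 higher genes of all tested. Removing the length trend gave 4 higher members. With control 1 also left out there were 4 higher members, 2552 higher and 3222 lower genes of all tested, and a members' median of -0.04. The Cyct share differed by -2.32 points in counts and -4.07 with Gm10053 included, and the Cox7b2 share by -5.75 points in counts. The cause of these changes was not tested beyond what each setting does by construction.

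Under pan-germ-cell scaling the log2 fold change turned positive for Cyct 0.22, Cycs 1.5, Cox6b2 1.54, Cox6b1 1.25, Cox7b2 0.65, Cox8a 1.15, Ndufv1 1.13, Ndufs7 0.93, Ndufa9 0.94, Ndufa10 1.39, Ndufaf8 0.65, Ndufaf7 1.21, Ndufaf1 1.43, Sdhb 1.07, Sdhc 1.28, Sdha 1.46, Cyc1 0.94, Uqcr11 1.02, Uqcrc1 1.21, Cox4i1 0.94, Cox5a 1.04, Atp5pb 1.01, Atp5f1d 1.0 and Atp5f1b 1.3. Sign changes were followed only for the genes named by rule, so members added later, such as Ndufa11, are not in this list. Elsewhere, among the same genes, the sign turned only for members that had not passed the test. Values were Cox6b2 0.23 and Ndufaf1 0.020 with the length trend removed, Cycs 0.10 and Cox6b2 0.11 with control 1 also left out, Cox6b2 0.083 on annotated length and Cycs 0.14, Cox6b2 0.16, Ndufa10 0.025, Ndufaf1 0.059 and Sdha 0.060 under length-range scaling. They were Cox7b -0.0089, Ndufv3 -0.0021, Ndufaf3 -0.033 and Atp5f1c -0.021 under upper-quartile scaling, Cox7b -0.044, Ndufb11 -0.028, Ndufv3 -0.038, Ndufaf6 -0.032, Ndufaf3 -0.068, Atp5mc3 -0.0045 and Atp5f1c -0.058 under total-count scaling, Ndufaf3 -0.013 and Atp5f1c -0.0060 under RLE scaling, Ndufaf3 -0.013 and Atp5f1c -0.0060 in DESeq2, Cox6b2 0.014 and Ndufaf6 -0.021 in limma-voom, Ndufaf3 -0.0043 with no filter, Ndufaf3 -0.0010 with the stricter filter and Cox6b2 0.0055 and Ndufaf6 -0.00071 with the replicate block. Over the libraries left out in turn, the log2 fold changes that turned ranged as Cycs -0.12 to 0.10, Cox6b2 -0.17 to 0.11, Cox7b -0.10 to 0.23, Ndufb11 -0.098 to 0.29, Ndufv3 -0.097 to 0.22, Ndufaf6 -0.30 to 0.21, Ndufaf3 -0.19 to 0.26, Ndufaf1 -0.20 to 0.017, Cox7a1 -0.067 to 0.66, Ndufa4l2 -0.019 to 0.35, Atp5mc3 -0.082 to 0.30 and Atp5f1c -0.064 to 0.092.

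The replicate numbers are not a pairing of animals in the labels, so the block is given here only. The correlations of same-numbered libraries cannot tell whether they pair. With 3 libraries a group, the exact test of a share cannot go below 0.1. Depth limits what low members can show, and members with at most 12 counts were not tested. Control 1 had the steepest trend on length, and part of the trend remained without it. The median log2 fold change of all genes was then -0.07 in the shortest decile and 0.11 in the longest, beside -0.19 and 0.27 with all libraries. Control 1 also differed from the mean of controls 2 and 3 in summed cell markers. Its ratio was 0.719 for pan-germ-cell, 1.36 for Sertoli, 1.82 for Leydig, 3.02 for red-cell and 1.44 for fat markers. For peritubular myoid, macrophage, endothelial and striated muscle markers it was 1.02, 1.02, 0.914 and 0.861. The separate parts of control 1, of length and of these cell types in the members' levels were not tested.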
